A study of Mus musculus with 36 samples.

Results

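The intestine of E18.5 mouse embryos that carry catalytically inactive caspase-8 and lack both cFLIP and MLKL was compared with the intestine of embryos that lack MLKL only, across all genes, to see what the tissue expresses when caspase-8 is present without protease activity and without cFLIP. The 3 libraries labelled Casp8 C362A knock-in, Cflar knockout and Mlkl knockout (C362A Cflar Mlkl below) and the 3 libraries labelled Mlkl knockout in the same set (Mlkl below) were chosen by their genotype labels alone, and they were 6 of the 36 libraries of the series. The series profiled embryonic intestine and embryonic fibroblasts from strains that combine caspase-8 mutants with loss of other cell death genes. Further libraries are described only as references: 3 of C362A Mlkl intestine (Casp8 C362A knock-in and Mlkl knockout, with Cflar intact), and, from a set with its own controls, 3 of D387A Cflar Mlkl intestine (Casp8 D387A knock-in with Cflar and Mlkl knockout) and 3 of its Mlkl knockout controls. The fits also drew on the other intestine libraries, whose levels are not described. In the C362A set these were C362A Mlkl with Casp1 knockout. In the D387A set they were Casp8 D387A knock-in alone, and D387A Cflar Mlkl with Casp1 knockout, with or without Ifnar1 or Fadd knockout as well. All of these embryos were of C57BL/6N background per the study's methods, were untreated and were taken at E18.5, shortly before birth. All lacked Mlkl except those labelled Casp8 D387A knock-in alone. Each library was labelled as a biological replicate, so that n = 3 per group throughout.

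The alleles are germline, so every cell type of the embryo carries them, and the tissue was whole intestine, in which epithelium, muscle, nerves, vessels and leukocytes are measured together. A lower value in such bulk RNA can mean fewer cells of a type or less RNA in each cell, and the counts cannot tell these apart. The Cflar allele of this line was made in Casp8 C362A Mlkl-deficient zygotes and is not the Cflar allele of the D387A line, whose Mlkl allele is another deletion as well. The study calls the Mlkl embryos littermates of the mutants, but which embryos shared a litter was not given in the sources used here.

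Caspase-8 is the initiating protease of extrinsic apoptosis and is recruited through the adaptor FADD to death receptors, where it can pair with another caspase-8 molecule or with cFLIP, a relative without protease activity that Cflar encodes. The C362A mutation removes the catalytic cysteine, so the protein can act as a scaffold but cannot cleave substrates, and in mice with intact Mlkl it leaves RIPK3 free to drive necroptosis through MLKL. Near birth the mouse intestine is lined by villus enterocytes that absorb milk lipids and lactose, with goblet, enteroendocrine and stem cells between them, and it holds few leukocytes.

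Read totals were 21757868 to 24337677 in the C362A Cflar Mlkl libraries and 23968160 to 31052238 in the Mlkl libraries. Casp8 (chr1:58795374-58847503, GRCm38) was expressed in every library, at 34.1, 29.6 and 24.2 RPKM in Mlkl and 50.6, 46.7 and 51.6 RPKM in C362A Cflar Mlkl, and a single-residue mutation does not show in a gene count. Cflar (chr1:58711508-58758884) was at 6.99, 6.93 and 7.27 RPKM in Mlkl and 5.64, 5.04 and 5.58 RPKM in C362A Cflar Mlkl, but the stated deletion covers 106 of its 12669 exonic bases (0.837%), so that its gene count does not check the label. Mlkl was read in both groups, at 1.07, 1.25 and 1.94 RPKM and 13.3, 9.14 and 9.66 RPKM, although all these embryos are labelled Mlkl knockout. RPKM is the number of reads per kilobase of a gene's exons, scaled to the depth of the library, so that levels can be compared between genes and libraries. The epithelial markers Epcam, Cdh1 and Vil1 and the intestinal factors Cdx1 and Cdx2 were high in all 6 libraries. In a principal component plot of the C362A set the third C362A Cflar Mlkl library stood apart from the other two (PC1 36.0 against 45.4 and 41.1, PC2 -12 against -25.9 and -27.3), and the second held more RNA of pancreatic genes (summed acinar markers 301 RPKM against 67.3 and 23.3). Counts are therefore also given without them where that moved a result. Summed markers of embryo sex varied within both groups, at 145, 41.3 and 134 RPKM in C362A Cflar Mlkl and 106, 122 and 62.6 RPKM in Mlkl. None of these 5 genes was called, and an effect of sex was not tested.

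Of 19408 genes tested, 2604 (13.4%) rose and 2177 (11.2%) fell in C362A Cflar Mlkl intestine, together 24.6%, where a call needed a change of more than 1 on the log2 scale and a Benjamini-Hochberg adjusted p under 0.05 in edgeR's quasi-likelihood test. The 3 libraries of a group did not overlap with the 3 of the other for 55% of all genes. That share is the background only for statements below on overlap between C362A Cflar Mlkl and Mlkl. For the other comparisons no such share is given. The median log2 fold change of all genes was 0.03. Scaling by read totals instead of the trimmed mean of M-values moved that median to 0.30 and the split of calls to 3900 higher and 1558 lower, so the directions below are relative to the bulk of genes. Without the third C362A Cflar Mlkl library 2853 genes were higher and 2391 lower, and without the second 2444 and 2205. In the lists examined, most genes of inflammation, interferon response and epithelial defense rose and most genes of lipid uptake, nutrient transport and the brush border fell, with the counts given list by list below.

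**Figure D1:**
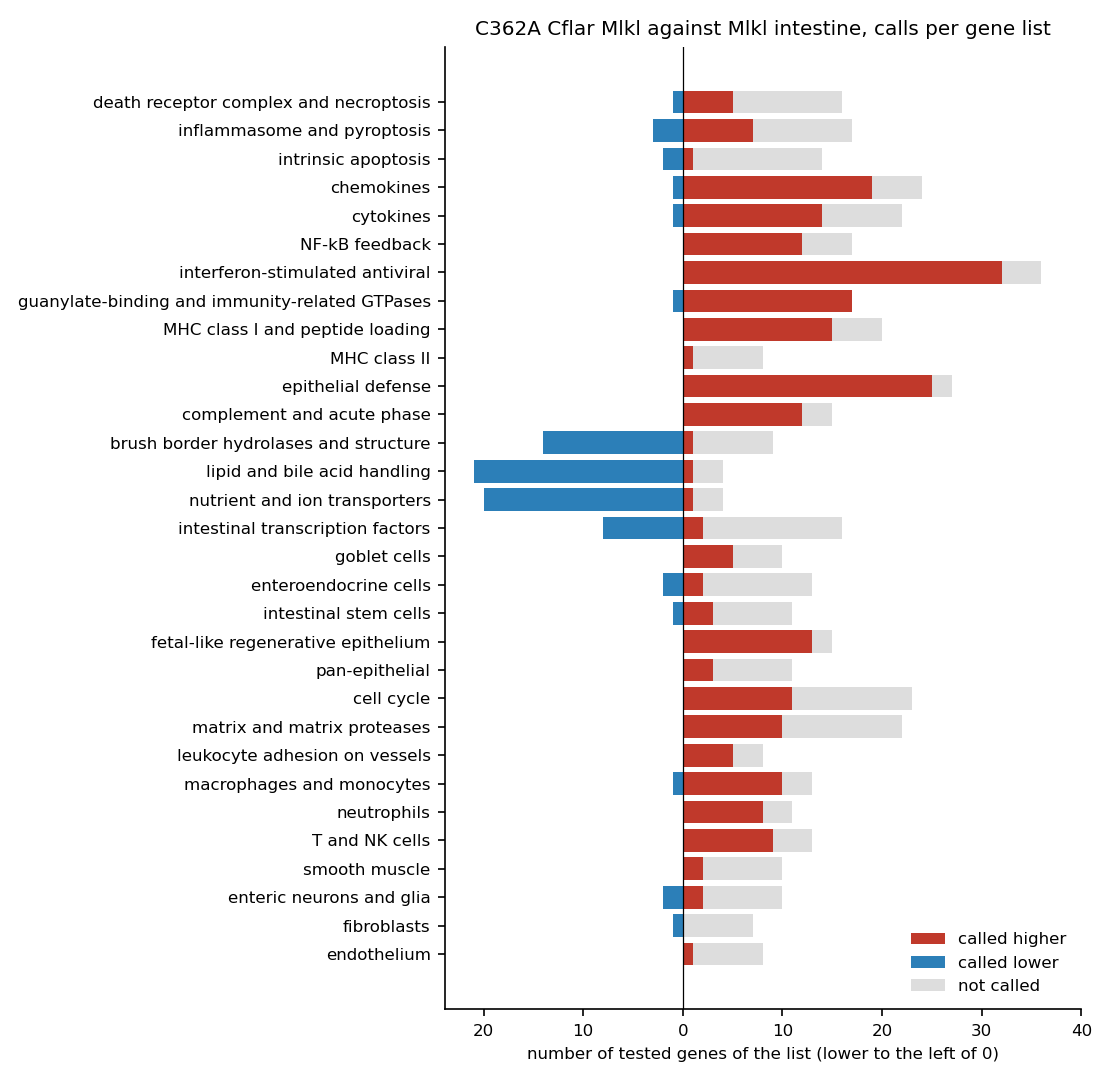
Number of genes in each of 31 lists that were called higher (red, to the right), called lower (blue, to the left) or not called (grey) in C362A Cflar Mlkl against Mlkl intestine (3 libraries per group). The bars for epithelial defense (25 of 27 higher), interferon-stimulated genes (32 of 36 higher) and lipid and bile acid handling (21 of 25 lower) are the most one-sided among the lists of 25 or more genes.

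Chemokines rose almost as a group. Of 25 chemokine genes tested, 19 rose and 1 fell (2 without the third C362A Cflar Mlkl library), with a median log2 fold change of 4.78 beside 0.03 for all genes. Among the neutrophil attractants, which signal through CXCR2, Cxcl1 was at 0.154, 0.108 and 0.183 RPKM in the Mlkl libraries and at 39.1, 19.2 and 8.52 RPKM in the C362A Cflar Mlkl libraries (log2 fold change 7.2 ± 0.64, adjusted p = 4.1e-07, edgeR; 6.52 without the first of these). Cxcl5 went from 0.0934, 0.109 and 0.0554 RPKM to 16.6, 7.16 and 6.06 RPKM and Cxcl2 from 0.0396, 0.0185 and 0.0703 RPKM to 6.52, 4.75 and 3.64 RPKM. All 3 were near the detection limit in every control and high in every C362A Cflar Mlkl library, with the first library the highest for each. Of the chemokines that interferon gamma induces and that draw T and NK cells through CXCR3, Cxcl9 was at 0.0764, 0.0834 and 0.0302 RPKM in Mlkl and 12.8, 10.4 and 15.5 RPKM in C362A Cflar Mlkl (log2 fold change 7.59 ± 0.25, adjusted p = 1.5e-10, edgeR). Cxcl10 (chr5:92346638-92348889) was at 0.363, 0.702 and 0.545 RPKM and 82.5, 44.6 and 75.2 RPKM (log2 fold change 6.96 ± 0.31, adjusted p = 1.4e-09, edgeR). Cxcl11 followed the same pattern at lower levels (log2 fold change 7.50). The monocyte attractants Ccl2, Ccl7 and Ccl12 rose with log2 fold changes of 6.60, 5.49 and 5.04. Ccl2 was at 0.407, 0.381 and 0.483 RPKM in Mlkl and 58.1, 40.3 and 25.2 RPKM in C362A Cflar Mlkl. Ccl5, an attractant of T cells, rose from 0.830, 1.62 and 0.819 RPKM to 11.8, 13.2 and 13.5 RPKM.

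Not every chemokine moved this way. Cx3cl1, the membrane-bound chemokine for CX3CR1-positive macrophages, fell from 40.6, 47.3 and 40.6 RPKM in Mlkl to 14.2, 9.57 and 19.9 RPKM in C362A Cflar Mlkl (log2 fold change -1.56 ± 0.20, adjusted p = 1.4e-05, edgeR), and the groups did not overlap. Ccl25, which the small intestinal epithelium makes to attract T cells that carry CCR9, overlapped at 111, 139.9 and 157 RPKM and 206, 148 and 75.1 RPKM. Ccl4, Ccl8 and Cxcl3 rose from at most 3 reads over the 3 control libraries, and their ratios by pooled reads were 30.7 (95% counting interval 10.2 to 152), 40.5 (10.9 to 340.3) and 64.4 (21.7 to 315). These intervals, like every interval below, cover counting error only.

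Of 23 cytokine genes tested, 14 rose and 1 fell (2 without the first or the third C362A Cflar Mlkl library), with a median log2 fold change of 1.96, or 1.74 when genes without a read in a group are set at their bound. Il1b, a cytokine that inflammatory caspases process, was at 1.98, 0.736 and 1.58 RPKM in Mlkl and 66.2, 40.1 and 30.01 RPKM in C362A Cflar Mlkl (log2 fold change 5.0 ± 0.33, adjusted p = 2.9e-08, edgeR). Tnf was at 0.0449, 0.210 and 0.266 RPKM and 7.27, 4.67 and 3.70 RPKM (log2 fold change 4.91 ± 0.42, adjusted p = 2.6e-07, edgeR). Il1rn, which encodes the secreted antagonist of the interleukin-1 receptor, rose by 4.86 on the log2 scale. Both Il1b and Tnf were highest in the first C362A Cflar Mlkl library and lowest in the third. Il6 varied far more, at 0.0303, 0 and 0.0539 RPKM in Mlkl and 7.89, 1.13 and 0.226 RPKM in C362A Cflar Mlkl. Its log2 fold change of 6.77 ± 1.27 was 4.59 without the first of these libraries and 7.31 without the third. Without the second and the third Mlkl library it was 6.17 and 7.55. Il33, an alarmin of stromal and epithelial cells, rose from 5.11, 4.82 and 3.63 RPKM to 21.3, 15.6 and 16.2 RPKM, and Tslp, which epithelial cells secrete, from 1.30, 1.52 and 1.27 RPKM to 3.17, 2.97 and 3.03 RPKM. Csf2, which encodes GM-CSF, fell from 1.43, 2.19 and 3.54 RPKM to 0.455, 0.370 and 0.320 RPKM (log2 fold change -2.62 ± 0.45, adjusted p = 1.9e-04, edgeR). Il18, an epithelial cytokine of the inflammasome pathway, overlapped at 26.2, 39.6 and 39.5 RPKM and 24.7, 32.9 and 18.9 RPKM.

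Interferon genes themselves were scarcely read. No read of Ifnb1 was found in the 6 libraries, and Ifng had 1 read over the 3 Mlkl libraries and 5 over the 3 C362A Cflar Mlkl libraries. The epithelial type III interferons Ifnl2 and Ifnl3, whose near-identical sequences make the split of reads between them uncertain, had 8 and 10 reads in C362A Cflar Mlkl and none in Mlkl, which put them at least 2.67-fold and 3.34-fold higher against a floor of 3 reads over the group. Il12b had 34 reads against none (at least 11.3-fold higher).

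**Figure D2:**
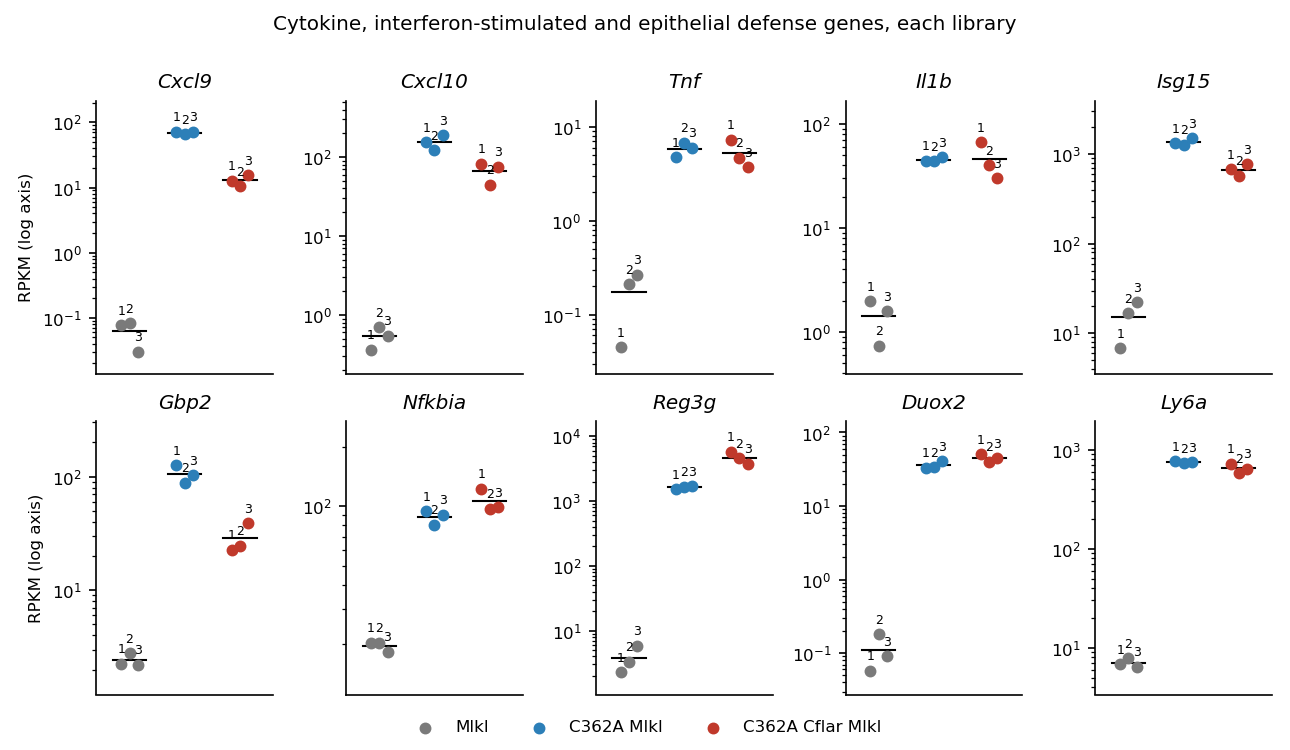
Level in RPKM (log axis) of inflammatory and interferon-stimulated genes in each library of Mlkl, C362A Mlkl and C362A Cflar Mlkl intestine, with a line at the mean of 3 libraries. For Cxcl9 the 3 C362A Cflar Mlkl libraries sit at 12.8, 10.4 and 15.5 RPKM, above every Mlkl library and below every C362A Mlkl library.

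Inhibitors and subunits of NF-kB, which NF-kB itself induces as feedback, rose in 12 of 17 genes and fell in none, with a median log2 fold change of 1.71. Nfkbia, which encodes the main cytoplasmic inhibitor of NF-kB, was at 20.2, 20.3 and 18.2 RPKM in Mlkl and 123, 97.5 and 98.9 RPKM in C362A Cflar Mlkl (log2 fold change 2.44 ± 0.15, adjusted p = 1.1e-08, edgeR). The non-canonical subunit gene Relb went from 5.22, 5.59 and 5.46 RPKM to 29.8, 23.4 and 25.4 RPKM and Nfkb2 from 10.1, 9.02 and 8.56 RPKM to 32.4, 26.4 and 34.6 RPKM. In these 3 genes the replicates of each group lay close together and far from the other group. Tnfaip3, which encodes the deubiquitinase A20, rose from 8.51, 8.24 and 8.13 RPKM to 22, 18.6 and 20.9 RPKM, and the RNase gene Zc3h12a from 2.75, 3.05 and 4.05 RPKM to 18, 13.4 and 14.2 RPKM. Birc3, whose product ubiquitinates RIPK1 at TNF receptors, rose by 1.62 on the log2 scale. Rela, the subunit gene most often measured for NF-kB activity, was not called at 21, 17.8 and 15.6 RPKM and 22.1, 21 and 22.8 RPKM.

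Antiviral genes that interferons induce rose in 32 of 36 cases and fell in none, with a median log2 fold change of 2.92. Isg15, a ubiquitin-like modifier, was at 6.86, 16.8 and 22.1 RPKM in Mlkl and 673, 572 and 763 RPKM in C362A Cflar Mlkl (log2 fold change 5.46 ± 0.35, adjusted p = 2.0e-08, edgeR). The RNA-binding protein gene Ifit1 (chr19:34640871-34650009) went from 12, 19.7 and 26.3 RPKM to 79.9, 66.7 and 159 RPKM (log2 fold change 2.40), and Oas3, an activator of RNase L, from 0.226, 0.321 and 0.342 RPKM to 22.7, 18.3 and 27.5 RPKM (log2 fold change 6.27). Mx1, a GTPase that restricts influenza viruses, was at 0.467, 0.660 and 1.53 RPKM and 57.6, 33.2 and 45.4 RPKM. Within the C362A Cflar Mlkl group the third library was the highest for Ifit1, Isg15 and Oas3, in contrast to the cytokines above, while Mx1 was highest in the first. Members that were not called still lay above the controls, such as Irf1 at 35.3, 44.8 and 49.2 RPKM and 80.6, 62.4 and 74.5 RPKM and Stat2 at 32.7, 38.7 and 44.5 RPKM and 65.7, 61.7 and 66.8 RPKM. Shared reads between Ifit3 and Ifit3b, and among the Oas1 copies, leave those single values uncertain.

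Guanylate-binding proteins and immunity-related GTPases attack the vacuoles of intracellular pathogens and are classical targets of interferon gamma. Of 18 such genes 17 rose and 1 fell (median log2 fold change 3.57), several of them in clusters of close copies. Gbp2 (chr3:142620602-142638008) was at 2.25, 2.79 and 2.22 RPKM in Mlkl and 22.6, 24.6 and 39 RPKM in C362A Cflar Mlkl (log2 fold change 3.57 ± 0.24, adjusted p = 3.4e-08, edgeR). Igtp rose from 4.95, 6.98 and 8.97 RPKM to 78, 58.8 and 112 RPKM and Iigp1 from 2.19, 3.51 and 2.92 RPKM to 68.7, 43.8 and 66.7 RPKM. The exception was Gbp2b, which fell from 1.36, 1.83 and 1.99 RPKM to 0.501, 0.904 and 0.596 RPKM (log2 fold change -1.36 ± 0.26, adjusted p = 5.7e-04, edgeR). Ubd, which encodes the ubiquitin-like modifier FAT10 that TNF and interferon gamma induce together, was among the largest rises of all genes, from 0.158, 0.222 and 0.234 RPKM to 94.8, 79.8 and 176 RPKM (log2 fold change 9.13 ± 0.46, adjusted p = 3.2e-09, edgeR).

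The 250 bases before the RefSeq start of 4 genes that rose are printed to show which of the known interferon and NF-kB elements lie there, from RefSeq's promoter table (GRCm38.p6). Capitals mark matches to the interferon-stimulated response element (TTTC, any 2 bases, TTTC, or the reverse complement) or to an NF-kB site, searched on both strands. For Ifit1 the RefSeq start lies inside the GENCODE gene whose coordinates are given above, so the end of its window overlaps that gene.

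Cxcl10, chr5:92348890-92349139, minus strand: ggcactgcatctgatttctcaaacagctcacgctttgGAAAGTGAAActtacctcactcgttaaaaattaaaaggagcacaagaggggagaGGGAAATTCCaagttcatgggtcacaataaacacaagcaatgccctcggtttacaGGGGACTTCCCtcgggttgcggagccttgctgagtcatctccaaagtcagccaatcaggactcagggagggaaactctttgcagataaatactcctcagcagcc
Ifit1, chr19:34640639-34640888, plus strand: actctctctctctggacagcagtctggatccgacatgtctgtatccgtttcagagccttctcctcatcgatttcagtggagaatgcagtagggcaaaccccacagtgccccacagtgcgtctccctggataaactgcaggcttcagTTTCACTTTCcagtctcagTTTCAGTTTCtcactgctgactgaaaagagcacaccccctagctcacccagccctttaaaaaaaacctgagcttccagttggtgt
Nfkbia, chr12:55492648-55492897, minus strand: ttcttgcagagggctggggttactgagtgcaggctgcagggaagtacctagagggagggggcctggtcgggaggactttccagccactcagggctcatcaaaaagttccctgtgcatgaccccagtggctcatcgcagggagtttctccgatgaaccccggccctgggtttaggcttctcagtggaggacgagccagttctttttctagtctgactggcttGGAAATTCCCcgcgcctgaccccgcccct
Reg3g, chr6:78468875-78469124, minus strand: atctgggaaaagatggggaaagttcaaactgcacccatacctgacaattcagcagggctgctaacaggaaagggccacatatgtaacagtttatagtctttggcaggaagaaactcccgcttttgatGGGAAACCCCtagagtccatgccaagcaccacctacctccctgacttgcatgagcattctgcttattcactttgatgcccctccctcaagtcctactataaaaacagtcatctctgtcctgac

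Counted back from the RefSeq transcription start, the interferon elements of Ifit1 begin at bases 104 and 85, and that of Cxcl10 at base 213. The Cxcl10 window also holds NF-kB matches at bases 159, 104 and 103, of which the last 2 overlap, and those of Nfkbia and Reg3g begin at bases 29 and 123. The Cxcl9 window held no match to either, nor to the interferon gamma activated site TTCNNNGAA, which was searched too and lies in none of the 4 windows printed. Across all 32851 promoters of that source, 2.98% held the interferon element, 7.25% an NF-kB site and 7.02% the activated site in the same window. Of the NF-kB feedback genes, 14 of 17 were found in the table with 17 promoters, and 10 of these (58.8%) held an NF-kB site. For all genes that rose, 1532 of 2604 were found, which is fewer than 80% and makes a share among them void.

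Genes of antigen presentation to CD8 T cells were higher as well. Of 20 genes of MHC class I and peptide loading, 15 rose and none fell (median log2 fold change 1.67). B2m, the light chain of class I molecules, was at 354, 526 and 564 RPKM in Mlkl and 1348, 1087 and 1508 RPKM in C362A Cflar Mlkl (log2 fold change 1.45 ± 0.21, adjusted p = 4.0e-05, edgeR) and was among the 10 largest gains in RPKM. Nlrc5, the transactivator of class I genes, rose from 0.0815, 0.191 and 0.317 RPKM to 11, 8.31 and 8.67 RPKM, and the peptide transporter gene Tap1 from 7.36, 8.72 and 9.64 RPKM to 71.9, 61.5 and 86.2 RPKM. H2-Q6 and H2-Q7, close copies whose reads may be shared, rose by 5.41 and 5.81 on the log2 scale. MHC class II genes were mostly not called. H2-Oa was called among 8 (0 genes without the first C362A Cflar Mlkl library and 2 without the third), while the transactivator Ciita was at 0.301, 0.432 and 0.473 RPKM and 0.485, 0.760 and 0.585 RPKM, and the chaperone Cd74 at 43.6, 56.6 and 54.9 RPKM and 87.3, 93.3 and 76.1 RPKM.

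Genes with which the gut epithelium meets microbes rose. Of 27 epithelial defense genes 25 rose and none fell, with a median log2 fold change of 6.23, and their summed level was 158 to 249 RPKM in the Mlkl libraries and 15320.0 to 21456 RPKM in the C362A Cflar Mlkl libraries. Most of that sum was Reg3b (chr6:78370657-78373466), a secreted lectin that binds bacteria, at 23.2, 35.9 and 31.3 RPKM in Mlkl and 14012, 14239 and 10576 RPKM in C362A Cflar Mlkl (log2 fold change 8.75 ± 0.39, adjusted p = 1.4e-09, edgeR). Reg3g (chr6:78466269-78468872), its antibacterial neighbour, was at 2.29, 3.30 and 5.88 RPKM and 5786, 4579.7 and 3783 RPKM (log2 fold change 10.28 ± 0.42, adjusted p = 7.0e-10, edgeR). Both were thus among the most abundant transcripts of the intestine in all 3 C362A Cflar Mlkl libraries. Close copies in the Reg cluster leave their exact split uncertain. The cell surface oxidase Duox2 and its maturation factor Duoxa2 rose together, Duox2 from 0.0576, 0.180 and 0.0911 RPKM to 50.6, 40.2 and 44.4 RPKM (log2 fold change 8.65, and 9.27 without the second Mlkl library). Duoxa2 went from 0.185, 0.259 and 0.137 RPKM to 137, 108 and 103 RPKM (log2 fold change 9.17). Nox1, the oxidase of colonic epithelium, went from 3 reads over the 3 Mlkl libraries to 1053, a ratio of 351 (95% counting interval 119.8 to 1706). Saa3, an acute phase protein, rose from 0.169, 0.145 and 0.251 RPKM to 78, 90.6 and 61.1 RPKM (log2 fold change 8.68). Retnlb, a goblet cell protein that acts on bacteria, rose from 0.0529, 0.149 and 0.439 RPKM to 53.7, 30.3 and 16.7 RPKM.

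Of genes known from Paneth cells, which in mice mature only after birth, Lyz1, their lysozyme, was at 4.31, 5.29 and 4.18 RPKM in Mlkl and 49, 27 and 14.3 RPKM in C362A Cflar Mlkl (log2 fold change 2.71 ± 0.34, adjusted p = 1.3e-05, edgeR). The ribonuclease gene Ang4 was at 1.14, 2.18 and 2.21 RPKM and 251, 165 and 112 RPKM (log2 fold change 6.57 ± 0.44, adjusted p = 3.1e-08, edgeR). Mmp7, the protease that activates their defensins, rose from 3.51, 6.12 and 4.20 RPKM to 309, 208 and 112 RPKM (log2 fold change 5.50). For all 3 genes the first library was the highest and the third the lowest of the group. The metabolic enzymes of interferon-exposed cells Ido1 and Acod1, which make kynurenine and itaconate, had 3 reads and 1 read over the Mlkl libraries and 594 and 286 reads in C362A Cflar Mlkl, ratios of 198 (95% counting interval 67.5 to 963) and 286 (50.95 to 11340.0). Nos2, which makes nitric oxide, rose from 0.231, 0.192 and 0.183 RPKM to 20.6, 15.6 and 29.3 RPKM. Reg2 and Reg1, made in the pancreas as well as the gut, followed another pattern. Reg2 had no read in Mlkl and was at 7.18, 31.2 and 1.78 RPKM in C362A Cflar Mlkl (at least 249-fold higher), and Reg1 was at 12.8, 14 and 20.5 RPKM and 39.2, 143 and 15.8 RPKM. Both peaked in the second library, whose summed acinar markers were also the highest, and the part of pancreatic RNA in these values was not tested. The bound for Reg2 pools the 3 libraries, rests mostly on the second and would be lower without it.

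Further abundant defense transcripts gained. Lypd8, which binds flagellated bacteria at the gut surface, rose from 1201, 1334 and 1225 RPKM to 4365, 3544 and 4189 RPKM and Pglyrp1, which binds peptidoglycan, from 91, 101 and 114 RPKM to 1144, 772 and 629.6 RPKM (log2 fold changes 1.69 and 3.06). Plac8, a cysteine-rich protein of epithelial and myeloid cells, rose from 269.8, 375 and 482 RPKM to 1387, 1359 and 853 RPKM (log2 fold change 1.68). Of 15 complement and acute phase genes 12 rose and none fell (median log2 fold change 2.6). C3, the central complement component, was at 4.27, 3.63 and 3.83 RPKM in Mlkl and 44.3, 45.1 and 29.97 RPKM in C362A Cflar Mlkl (log2 fold change 3.35 ± 0.19, adjusted p = 7.7e-09, edgeR). Haptoglobin, encoded by Hp, rose from 0.684, 0.384 and 1.69 RPKM to 14.3, 16.6 and 12.5 RPKM, and the protease inhibitor gene Serpina3n from 0.12, 0.050 and 0.106 RPKM to 11.9, 7.07 and 4.84 RPKM. Complement factor B, encoded by Cfb, was at 6.53, 7.04 and 6.81 RPKM and 7.08, 6.26 and 6.91 RPKM, with overlapping groups.

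The absorptive programme of villus enterocytes fell. Of 25 genes of lipid and bile acid handling 21 fell and 1 rose (median log2 fold change -2.49). Fabp1 (chr6:71199827-71205023), which encodes a cytosolic fatty acid carrier and was among the most abundant transcripts of control intestine, was at 6042, 7696 and 10229 RPKM in Mlkl and 166, 102 and 157 RPKM in C362A Cflar Mlkl (log2 fold change -5.81 ± 0.32, adjusted p = 6.1e-09, edgeR). Its relative Fabp2 fell from 4543, 6968 and 8989 RPKM to 208, 229 and 505 RPKM (log2 fold change -4.44 ± 0.39, adjusted p = 3.6e-07, edgeR). Both genes separated the groups by a wide margin in every library. The chylomicron apolipoprotein Apoa4 fell from 11025, 15385 and 17453 RPKM to 710.4, 1091 and 2635 RPKM (log2 fold change -3.31 ± 0.45, adjusted p = 2.4e-05, edgeR; -4.03 without the third C362A Cflar Mlkl library). Apoa1 fell from 6824, 10080.0 and 10558 RPKM to 1051, 1455 and 3407 RPKM, with the third C362A Cflar Mlkl library highest of its group. Mttp, which loads lipid onto apolipoprotein B, fell from 699, 699.9 and 668 RPKM to 112, 86.4 and 173 RPKM, and Dgat2, which completes triglyceride synthesis, from 627, 808 and 892 RPKM to 44, 39.6 and 86.3 RPKM. Rbp2, a retinol carrier of enterocytes, fell from 2786, 3632 and 3996 RPKM to 213, 148 and 246 RPKM.

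The bile acid sensor gene Nr1h4, which encodes FXR, fell from 109, 115 and 108 RPKM in Mlkl to 43.1, 40.4 and 39.2 RPKM in C362A Cflar Mlkl (log2 fold change -1.44 ± 0.10, adjusted p = 3.0e-08, edgeR), and its target Nr0b2 from 6.21, 12 and 10.4 RPKM to 0.143, 0.0653 and 0.0646 RPKM (log2 fold change -6.67 ± 0.40, adjusted p = 1.1e-08, edgeR). Fgf15, the ileal hormone that FXR induces, dropped from 384 reads over the Mlkl libraries to 2, a ratio of 192 (95% counting interval 52.8 to 1590.0). Slc10a2, the ileal bile acid importer, was the one member that rose, from 1.09, 1.38 and 1.55 RPKM to 10.5, 10.2 and 7.72 RPKM (log2 fold change 2.82 ± 0.26, adjusted p = 5.0e-07, edgeR). Abcb11, a bile salt exporter best known in liver, had one of the largest falls of all genes, from 23.6, 34.2 and 30.9 RPKM to 0.0236, 0.0718 and 0.0355 RPKM (log2 fold change -9.36 ± 0.35, adjusted p = 3.7e-10, edgeR).

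Of 23 brush border genes 14 fell and 1 rose (0 without the first or the second C362A Cflar Mlkl library; median log2 fold change -1.57). Lct (chr1:128284756-128328318), the lactase that digests milk sugar, was at 243, 313 and 259 RPKM in Mlkl and 0.661, 0.497 and 5.18 RPKM in C362A Cflar Mlkl (log2 fold change -7.00 ± 0.76, adjusted p = 3.0e-06, edgeR; -8.88 without the third library). The peptidase gene Ace went from 428, 537 and 475 RPKM to 10.4, 16.7 and 77.3 RPKM (-3.79; -5.15 without the third library). Intestinal alkaline phosphatase, Alpi, went from 489, 655 and 681 RPKM to 57.7, 52.7 and 106 RPKM (-3.08). In all 3 genes the third C362A Cflar Mlkl library kept the most transcript of its group and still lay below every control. Cdhr5, which links microvilli, fell from 511, 659.6 and 649 RPKM to 166, 157 and 290.3 RPKM. Villin, encoded by Vil1, was lower in every library but not called, at 332, 315 and 246 RPKM and 160.3, 141 and 226 RPKM, and Mgam, a starch-digesting enzyme, overlapped at 44.3, 37.9 and 29.7 RPKM and 33.1, 25.3 and 39.5 RPKM. Enteropeptidase, Tmprss15, had 45 reads in Mlkl and none in C362A Cflar Mlkl, at least 14.99-fold lower. Mamdc4, a protein of the apical endosomes of suckling enterocytes, fell from 1373, 1519 and 1854 RPKM to 19.5, 47.3 and 117 RPKM (log2 fold change -4.69 ± 0.51, adjusted p = 3.1e-06, edgeR; -5.57 without the third library).

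Nutrient and ion transporters fell in 20 of 24 cases and rose in 1 (median log2 fold change -2.03). Slc2a2, the basolateral glucose transporter GLUT2, was nearly lost, at 24.3, 28.5 and 27.1 RPKM in Mlkl and 0.00726, 0.0597 and 0.0525 RPKM in C362A Cflar Mlkl (log2 fold change -9.32 ± 0.48, adjusted p = 4.3e-09, edgeR). The apical glucose transporter gene Slc5a1 fell from 127, 126 and 119 RPKM to 38.1, 34.5 and 66.3 RPKM (log2 fold change -1.42). Slc6a19, the main neutral amino acid carrier, fell from 70.7, 86.8 and 100.5 RPKM to 3.56, 3.53 and 9.32 RPKM (log2 fold change -3.97, and -4.61 without the third C362A Cflar Mlkl library). Slc15a1, the peptide carrier, fell from 18.9, 23.8 and 22.9 RPKM to 5.97, 4.42 and 7.19 RPKM. Slc13a1, a sulfate carrier, rose from 0.177, 0.303 and 0.280 RPKM to 1.30, 0.978 and 1.11 RPKM.

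Of 24 intestinal transcription factor genes 8 fell and 2 rose (median log2 fold change -0.72). Hnf4a, a regulator of the whole enterocyte programme, was not called, at 167, 157 and 125 RPKM in Mlkl and 107, 69.7 and 104 RPKM in C362A Cflar Mlkl (log2 fold change -0.68 ± 0.20, adjusted p = 0.011, edgeR), nor was Cdx2 (log2 fold change -0.77 ± 0.15, adjusted p = 4.9e-04, edgeR). Gata4 and Gata6, which specify the proximal small intestine, fell (log2 fold changes -1.44 and -1.86). Maf and Prdm1, which are high in the suckling epithelium, fell (log2 fold changes -2.66 and -1.82), with Maf at 42.3, 39.7 and 33.1 RPKM and 4.91, 5.58 and 7.75 RPKM. Creb3l3, a regulator of apolipoprotein genes, fell from 276, 334 and 371 RPKM to 32.4, 27.7 and 60.9 RPKM (log2 fold change -3.02 ± 0.26, adjusted p = 3.0e-07, edgeR). Ppara, a fatty acid sensor, fell (log2 fold change -1.97), while its relative Pparg rose (1.42), from 8.37, 6.38 and 6.10 RPKM to 20.4, 18.4 and 17 RPKM.

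**Figure D3:**
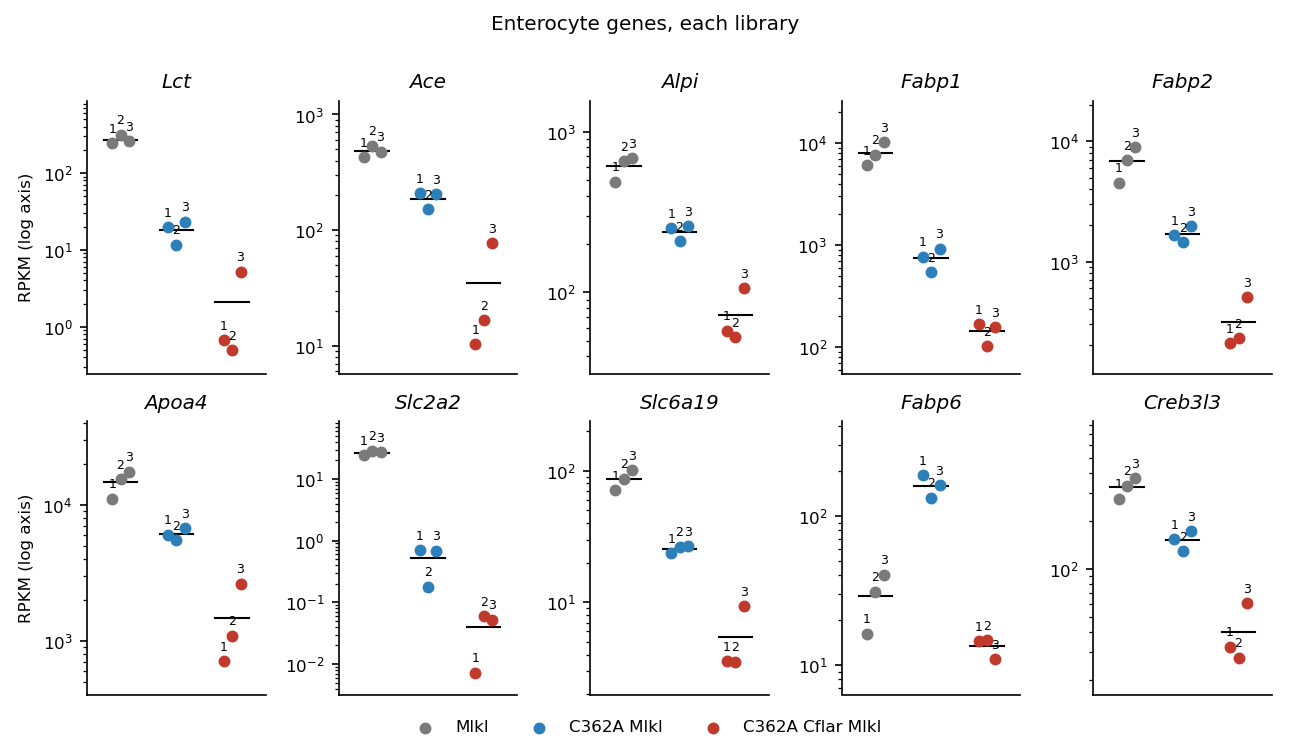
Level in RPKM (log axis) of 10 enterocyte genes in each library of Mlkl, C362A Mlkl and C362A Cflar Mlkl intestine, with a line at the mean of 3 libraries. Lct goes from 243, 313 and 259 RPKM in Mlkl to 0.661, 0.497 and 5.18 RPKM in C362A Cflar Mlkl, and Fabp6 is highest in C362A Mlkl (187, 132 and 159.9 RPKM).

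By the naming rule, the 10 largest falls by log2 fold change included genes outside these lists, several of them enzymes. G6pc, the final enzyme of glucose release, fell from 8.35, 19.7 and 15.8 RPKM in Mlkl to 0.0335, 0.0766 and 0.0454 RPKM in C362A Cflar Mlkl, and Fbp1, another enzyme of gluconeogenesis, from 128, 218 and 184 RPKM to 0.383, 1.62 and 1.71 RPKM (log2 fold changes -8.07 and -7.14). Acot3, an acyl-CoA thioesterase, and Cyp2c23, an arachidonic acid epoxygenase, fell with log2 fold changes of -8.55 and -7.73. Leap2, which encodes a peptide that blocks the ghrelin receptor, fell from 119, 262 and 477 RPKM to 1.07, 0.835 and 0.826 RPKM (log2 fold change -8.29 ± 0.51, adjusted p = 1.5e-08, edgeR; -7.69 without the third Mlkl library). Nr2e3, a nuclear receptor, fell from 17.4, 30.7 and 29.6 RPKM to 0.0794, 0.145 and 0.126 RPKM, and Sdr16c5, a retinol dehydrogenase, from 2249 reads to 3, a ratio of 749 (95% counting interval 256 to 3636). The pseudogene Gm15823 went from 379 reads to 2.

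Abundant transcripts outside the enterocyte lists fell too. H19, an imprinted noncoding RNA of growing fetal tissues, was at 9197, 7055 and 5964 RPKM in Mlkl and 526, 699 and 907 RPKM in C362A Cflar Mlkl (log2 fold change -3.38 ± 0.39, adjusted p = 5.3e-06, edgeR). Gpx3, a secreted glutathione peroxidase, fell from 2157, 3295 and 3184 RPKM to 165, 298 and 708 RPKM (log2 fold change -2.88 ± 0.41, adjusted p = 4.2e-05, edgeR; -3.64 without the third C362A Cflar Mlkl library). mt-Nd1 and mt-Cytb, which encode subunits of respiratory complexes I and III, fell (log2 fold changes -1.71 and -1.10), with mt-Nd1 at 5603, 6299 and 7287 RPKM and 2008, 1444 and 2423 RPKM. All 13 protein-coding genes of the mitochondrial genome were called lower, with log2 fold changes between -1.93 and -1.04, a set chosen after its values were seen. Rack1, which encodes a protein of the small ribosomal subunit, was among the largest gains in RPKM, from 796, 863 and 1149.8 RPKM to 2247, 2638 and 1244 RPKM, but in the third library it lay close to the highest control.

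Goblet cell genes rose in 5 of 10 cases and fell in none (median log2 fold change 0.93). The trefoil peptide gene Tff3 was at 876, 1290.5 and 1492 RPKM in Mlkl and 3002, 2777 and 1711 RPKM in C362A Cflar Mlkl, and Zg16, a lectin of the mucus, at 31.9, 68.2 and 66.3 RPKM and 279, 266 and 292 RPKM. Muc2, the main mucin, was not called, at 50.6, 69 and 63.4 RPKM and 93.7, 101 and 129.6 RPKM. Of 15 enteroendocrine genes 2 rose (Nts and Tac1) and 2 fell (Gip and Pax4). Gip, the incretin of K cells, fell from 34.2, 66.6 and 58.2 RPKM to 21.5, 23.7 and 23.9 RPKM, and Tac1, which encodes substance P, rose from 8.25, 9.06 and 7.87 RPKM to 22.3, 26.3 and 33.4 RPKM. Of 12 stem cell genes Olfm4, Ascl2 and Prom1 rose and Tnfrsf19 fell. The counts of the enteroendocrine and stem cell lists lay near the 24.6% of all genes called. Olfm4, also an NF-kB target, was at 36.2, 38.6 and 27.9 RPKM and 291, 104 and 62 RPKM (log2 fold change 2.15 ± 0.41, adjusted p = 5.1e-04, edgeR; 1.27 without the first C362A Cflar Mlkl library). Lgr5, the receptor that marks cycling stem cells, was not called, at 2.99, 2.47 and 2.56 RPKM and 5.33, 4.49 and 4.74 RPKM.

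Genes of the fetal-like epithelium that appears when the gut repairs injury rose in 13 of 15 cases and fell in none (median log2 fold change 2.72). Ly6a, which encodes the surface protein Sca-1 and is also induced by interferons, was at 6.81, 7.81 and 6.43 RPKM in Mlkl and 718, 577 and 641 RPKM in C362A Cflar Mlkl (log2 fold change 6.52 ± 0.30, adjusted p = 2.2e-09, edgeR). Sprr1a, a cornified envelope protein, rose from 0.274, 0.427 and 0.595 RPKM to 24.7, 32 and 29.4 RPKM, and the growth factors Areg and Ereg, ligands of the EGF receptor, by 3.98 and 3.57 on the log2 scale. Clu, a chaperone that marks revival stem cells, was at 4.45, 3.84 and 4.17 RPKM and 7.75, 13.9 and 7.64 RPKM. Of genes that all epithelial cells share 3 of 11 rose and none fell, near the 24.6% of all genes called, with summed levels of 4275 to 4726 RPKM in Mlkl and 4768 to 5235 RPKM in C362A Cflar Mlkl, and Epcam at 593, 669 and 655 RPKM and 674, 540.1 and 726 RPKM. Of 23 cell cycle genes 11 rose and none fell (median log2 fold change 0.98). Rrm2, which supplies nucleotides for DNA replication, went from 16.2, 13.5 and 11.8 RPKM to 51.2, 50.3 and 48 RPKM, whereas Mki67 was not called at 23.3, 17.4 and 16.1 RPKM and 27.9, 28 and 30.8 RPKM.

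Of 22 genes of matrix and its proteases 10 rose and none fell (median log2 fold change 0.55). The fibrillar collagens Col1a1, Col1a2 and Col3a1 overlapped between the groups, with Col1a1 at 196, 108 and 79.1 RPKM in Mlkl and 83.8, 115 and 147 RPKM in C362A Cflar Mlkl. The members that rose were mostly proteases and their inhibitors, among them Mmp10 and Mmp13 (log2 fold changes 3.93 and 2.96) and Timp1 (3.56, 3.37 and 3.98 RPKM and 50.2, 25.4 and 21.3 RPKM; log2 fold change 3.15 ± 0.31, adjusted p = 1.2e-06, edgeR).

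Of 17 genes of the death receptor complex and of necroptosis 5 rose and 1 fell (median log2 fold change 0.33), beside 24.6% of all genes called, and nothing is read from that count. Zbp1, a sensor of left-handed nucleic acids that can engage RIPK3 and is itself induced by interferon, was at 0.986, 2.43 and 2.03 RPKM in Mlkl and 71.2, 59.4 and 68.1 RPKM in C362A Cflar Mlkl (log2 fold change 5.19 ± 0.26, adjusted p = 3.4e-09, edgeR). Ripk3, the kinase that phosphorylates MLKL, rose from 19.5, 16 and 18.8 RPKM to 43.4, 41.4 and 46.1 RPKM (log2 fold change 1.27 ± 0.11, adjusted p = 3.9e-07, edgeR), and the transcript of the disrupted Mlkl gene by 2.92 on the log2 scale. Fas, a death receptor, was at 3.33, 5.46 and 6.90 RPKM and 13.7, 9.91 and 8.22 RPKM, just past the fold threshold (1.02), and lost its call without the first library of either group (0.80 and 0.79). Ticam1, the adaptor of toll-like receptor 3, fell from 41.3, 37.8 and 31.7 RPKM to 17.1, 12.9 and 17.9 RPKM. Fadd and Ripk1, the partners of caspase-8 in this complex, were not called, at log2 fold changes of -0.44 ± 0.11 and -0.33 ± 0.13.

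Of 20 inflammasome and pyroptosis genes 7 rose and 3 fell, beside 24.6% of all genes called. Their median log2 fold change was -0.005, and its sign changed in 11 other settings. Casp4, the receptor for cytosolic lipopolysaccharide, was at 7.38, 8.90 and 12.3 RPKM in Mlkl and 55.2, 49.6 and 47.4 RPKM in C362A Cflar Mlkl (log2 fold change 2.42 ± 0.16, adjusted p = 3.3e-08, edgeR), and Nlrp3 at 0.136, 0.102 and 0.140 RPKM and 1.11, 0.920 and 0.991 RPKM (log2 fold change 3.00 ± 0.25, adjusted p = 2.6e-07, edgeR). The gasdermins Gsdmc2, Gsdmc3 and Gsdmc4 rose by 6.18, 4.20 and 5.26 on the log2 scale, although these are near-identical copies between which reads can be shared. Casp1, its adaptor Pycard and the pore protein gene Gsdmd were not called, with Casp1 at 33.1, 45.2 and 43.2 RPKM and 48.5, 39.1 and 43 RPKM and Gsdmd at 128, 156 and 170.5 RPKM and 127, 133 and 146 RPKM. Naip1, Naip5 and Naip6, epithelial sensors of bacterial secretion needles and flagellin, fell with log2 fold changes of -1.53, -1.54 and -1.38. Among 16 genes of intrinsic apoptosis, a list with no larger share of calls than the 24.6% of all genes, Casp6 and Casp9 fell and Bcl2a1b rose from 2 reads to 30 (a ratio of 15.01, 95% counting interval 3.81 to 129.6). Casp9, the initiator of the mitochondrial pathway, went from 17.4, 16.6 and 13.6 RPKM to 6.14, 5.04 and 6.94 RPKM.

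Neutrophil genes rose in 8 of 11 cases, and their summed level was 20.1 to 54.8 RPKM in the Mlkl libraries and 307 to 497 RPKM in the C362A Cflar Mlkl libraries. Most of that sum was S100a8 and S100a9, which other cells can also make, but Ly6g, a defining surface protein, rose from 0.117, 0.183 and 0 RPKM to 1.12, 1.22 and 1.67 RPKM and the receptor gene Cxcr2 from 0.0965, 0.0226 and 0.0858 RPKM to 2.07, 2.39 and 2.82 RPKM (log2 fold change 5.15 ± 0.34, adjusted p = 2.3e-08, edgeR). The granule genes Mpo, Camp and Ngp of immature neutrophils overlapped between the groups. T and NK cell genes rose in 9 of 13 cases, with sums of 8.87 to 11.1 RPKM in Mlkl and 54.6 to 71.4 RPKM in C362A Cflar Mlkl, led by the granzymes, with Gzmb at 0.410, 0.407 and 0.182 RPKM and 14.1, 11.7 and 10.03 RPKM (log2 fold change 5.12 ± 0.27, adjusted p = 4.3e-09, edgeR) and Gzma at 4.24, 4.96 and 5.55 RPKM and 36.3, 36.5 and 22.1 RPKM. Cd3g was low at 0.539, 0.673 and 0.383 RPKM and 2.05, 1.34 and 0.965 RPKM, and Cd3e and Cd3d did not pass the filter on low counts.

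Macrophage and monocyte genes rose in 10 of 14 cases and fell in 1, with sums of 184 to 220.4 RPKM in Mlkl and 404 to 544 RPKM in C362A Cflar Mlkl. C1qa, a complement component of resident macrophages, was at 33.8, 43.1 and 40.3 RPKM in Mlkl and 115, 121 and 86.1 RPKM in C362A Cflar Mlkl, and the lipopolysaccharide receptor gene Cd14 at 1.47, 1.93 and 1.53 RPKM and 24.5, 15.1 and 13.7 RPKM. Csf1r, the growth factor receptor of macrophages, fell from 51.3, 57.7 and 61.4 RPKM to 12.4, 17.2 and 23.1 RPKM (log2 fold change -1.69 ± 0.18, adjusted p = 2.6e-06, edgeR), against the other members. How far such leukocyte RNA contributes to the cytokine, interferon response and MHC values above was not tested.

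The counts of the smooth muscle, nerve and endothelial lists lay near or below the 24.6% of all genes called, and nothing is read from them. The adhesion molecules Icam1, Vcam1 and Madcam1, with which vessels hold leukocytes, rose by 1.77, 1.30 and 1.28 on the log2 scale. Of 10 smooth muscle genes Des and Tagln rose, and the summed level was 1474 to 2341 RPKM in Mlkl and 3444 to 4212 RPKM in C362A Cflar Mlkl. Tagln, an actin-binding protein, was at 395, 416 and 368 RPKM and 1284, 1618 and 831 RPKM (log2 fold change 1.66 ± 0.26, adjusted p = 1.1e-04, edgeR), while Myh11, the smooth muscle myosin, overlapped at 122, 86.2 and 62.7 RPKM and 68.4, 81.3 and 109 RPKM. Of 12 neuronal and glial genes Vip, a relaxant neuropeptide, rose from 9.35, 9.96 and 8.03 RPKM to 39, 53 and 60.4 RPKM and Gfap, which reactive glia make, from 0.0542, 0.0676 and 0.0642 RPKM to 4.65, 1.39 and 0.637 RPKM. The receptor gene Ret and the glial gene S100b fell (log2 fold changes -1.19 and -1.30). Of the endothelial and fibroblast lists at most 1 member each was called, Lyve1 higher (not without the third C362A Cflar Mlkl library) and Dpt lower.

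Genes of neighbouring organs varied between libraries. Pancreatic acinar genes were called higher in 8 of 10 cases, a count that was 5 without the second C362A Cflar Mlkl library. Prss1 and the related 2210010C04Rik, which code for trypsinogens, were among the 10 largest rises at ratios of 425 (95% counting interval 75.9 to 16830.0) and 304.5 (103.9 to 1479). Prss1 was at 3.56, 15.7 and 0.545 RPKM and 2210010C04Rik at 2.38, 13.2 and 0.358 RPKM in the 3 libraries. Both ratios pool the 3 libraries, rest mostly on the second and would be lower without it. The insulin gene Ins1 was at 0.217, 0 and 0.601 RPKM in Mlkl and 0.159, 16.8 and 0 RPKM in C362A Cflar Mlkl, and Alb of liver at 10.8, 1.35 and 34.9 RPKM and 0.0993, 35.8 and 0.0180 RPKM. All of these peaked in the second library of the C362A Cflar Mlkl group. Gkn2 of the stomach had 122 reads against none in Mlkl (at least 40.7-fold higher). These single genes do not stand for their lists. Of 6 stomach genes tested 2 were called higher and 1 lower, beside 24.6% of all genes called. Of 8 liver genes 1 was called higher and 3 lower. The summed level of the liver list was 428 to 541 RPKM in Mlkl and 200 to 256 RPKM in C362A Cflar Mlkl.

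**Figure D4:**
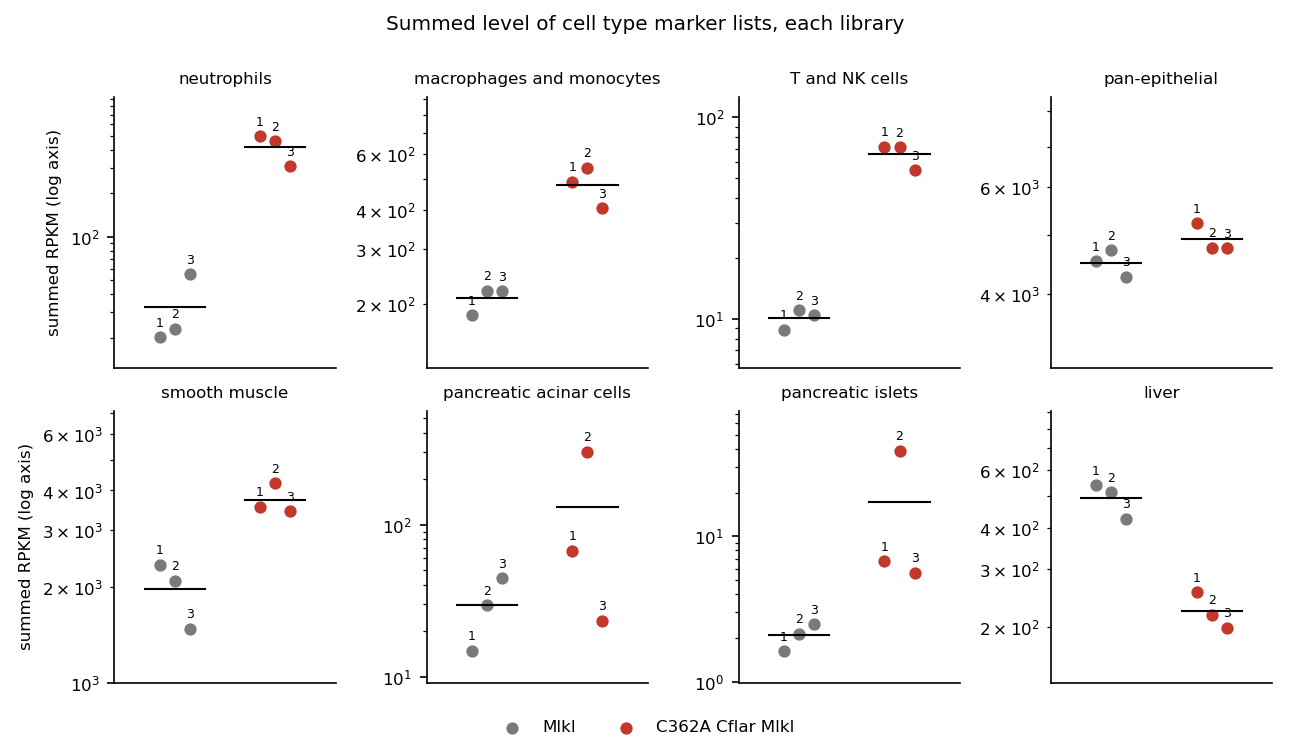
Summed RPKM (log axis) of cell type marker lists in each Mlkl and C362A Cflar Mlkl library, with a line at the mean of 3 libraries. Neutrophil sums are 20.1 to 54.8 RPKM in Mlkl and 307 to 497 RPKM in C362A Cflar Mlkl, pan-epithelial sums lie close together, and the acinar sum peaks at 301 RPKM in the second C362A Cflar Mlkl library.

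To ask what the loss of Cflar adds to the C362A mutation, C362A Cflar Mlkl was set directly against C362A Mlkl in the same fit, which shares the C362A Cflar Mlkl libraries with the comparison above. Whether embryos of both genotypes shared a litter or breeding line was not given, so neither can be told apart from the loss of Cflar. Of 19408 genes 281 (1.45%) were higher and 896 (4.62%) lower in C362A Cflar Mlkl, together 6.06%. Scaled by read totals the split was 485 higher and 704 lower, with the median of all genes moved from -0.02 to 0.11. The third C362A Cflar Mlkl library weighed on these counts, which were 641 and 1072 without it and 156 and 700 without the second, and without the third C362A Mlkl library they were 154 and 721. C362A Mlkl against Mlkl had 2021 genes higher and 1466 lower.

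Genes that interferon gamma induces were lower than in C362A Mlkl. All 18 guanylate-binding and immunity-related GTPases were lower in C362A Cflar Mlkl than in C362A Mlkl (median log2 fold change -1.55), with Gbp2 at 125, 88.1 and 103 RPKM in C362A Mlkl and 22.6, 24.6 and 39 RPKM in C362A Cflar Mlkl (log2 fold change -1.87 ± 0.22, adjusted p = 1.5e-04, edgeR). Ifng itself was at 0.868, 0.885 and 1.05 RPKM and 0, 0.0306 and 0.121 RPKM (log2 fold change -4.06 ± 0.55, adjusted p = 3.4e-04, edgeR; -5.56 without the third C362A Cflar Mlkl library). Ifnb1 had 17 reads in C362A Mlkl and none in C362A Cflar Mlkl (at least 5.38-fold lower). Cxcl9 was at 71.9, 65.2 and 72 RPKM and 12.8, 10.4 and 15.5 RPKM (log2 fold change -2.44 ± 0.15, adjusted p = 3.0e-06, edgeR). Ido1 was at 35.5, 31.5 and 23.6 RPKM and 5.60, 2.65 and 4.21 RPKM (log2 fold change -2.86 ± 0.26, adjusted p = 4.0e-05, edgeR). Socs1, the feedback inhibitor of interferon receptors, was at 40.3, 39.6 and 45.8 RPKM and 13.9, 9.999 and 11.4 RPKM. In each of these genes all 3 C362A Cflar Mlkl libraries lay below all 3 of C362A Mlkl. That was usual for a called gene, since the groups did not overlap in 1104 of the 1177 genes called in this comparison. The share over all genes is not given, so nothing is read from the lack of overlap. Antiviral genes were lower in 14 of 36 cases, a count that was 9, 7 and 16 without the first, the second and the third C362A Cflar Mlkl library, and MHC class I genes in 7 of 20, which was 4 without the second.

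Of 17 NF-kB feedback genes 0 were called in either direction by edgeR (1 lower without the first C362A Cflar Mlkl library), which with 6.06% of all genes called is near the background. Their median log2 fold change was -0.15, and 3 (Tnip1, Bcl3 and Tnfaip2) had an unadjusted edgeR p under 0.05, as did 6283 of all 19408 genes tested. Nfkbia was at 94.6, 80.6 and 90.7 RPKM in C362A Mlkl and 123, 97.5 and 98.9 RPKM in C362A Cflar Mlkl. Epithelial defense genes were higher in 5 of 27 cases (8 without the third C362A Cflar Mlkl library) and lower in 2. Reg3b was at 4805, 5384 and 5532 RPKM in C362A Mlkl and 14012, 14239 and 10576 RPKM in C362A Cflar Mlkl (log2 fold change 1.30 ± 0.28, adjusted p = 0.0052, edgeR), Reg3g at 1518, 1661 and 1708 RPKM and 5786, 4579.7 and 3783 RPKM (log2 fold change 1.53 ± 0.28, adjusted p = 0.002, edgeR), and Lyz1 at 9.02, 11.9 and 11.8 RPKM and 49, 27 and 14.3 RPKM. Of the chemokines Cxcl1 and Ccl25 were higher, a count of 2 that was 0 without the first and 4 without the third C362A Cflar Mlkl library, and 7 were lower. Il1a, an alarmin, was at 20.7, 15.7 and 25 RPKM and 1.35, 1.67 and 7.83 RPKM (log2 fold change -2.49 ± 0.46, adjusted p = 0.0021, edgeR; -3.76 without the third C362A Cflar Mlkl library).

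Enterocyte genes were lower again in C362A Cflar Mlkl. Of the lipid and bile acid genes 16 of 25 were lower than in C362A Mlkl, of the brush border genes 13 of 23, and of the transporters 10 of 24, counts that were 11, 9 and 9 without the second C362A Cflar Mlkl library. Of the brush border genes Akp3 was higher, a count of 1 that was 0 without the first and 2 without the second library. Lct was at 19.8, 11.7 and 23.3 RPKM in C362A Mlkl and 0.661, 0.497 and 5.18 RPKM in C362A Cflar Mlkl (log2 fold change -3.11 ± 0.64, adjusted p = 0.0041, edgeR; -4.99 without the third C362A Cflar Mlkl library). Both groups lay below the Mlkl controls at 243, 313 and 259 RPKM. Fabp6, the ileal bile acid carrier, ran differently, at 16.2, 30.8 and 40.1 RPKM in Mlkl, 187, 132 and 159.9 RPKM in C362A Mlkl and 14.3, 14.7 and 10.9 RPKM in C362A Cflar Mlkl (log2 fold change -3.58 ± 0.30, adjusted p = 3.3e-05 against C362A Mlkl, edgeR). Fabp6 was thus high in C362A Mlkl and below every control in C362A Cflar Mlkl. The largest falls against C362A Mlkl by the naming rule also included Smcp, known from sperm mitochondria, at 29.9, 27.3 and 33.9 RPKM and 0.708, 1.54 and 5.17 RPKM (log2 fold change -3.60), Fbp1 (-3.07), the orphan receptor gene Gpr151 (-3.03) and the noncoding 5033403H07Rik (-3.15). Without the third C362A Cflar Mlkl library, the highest of its group in each, Smcp was at -4.74, Gpr151 at -4.83 and 5033403H07Rik at -4.03.

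By the naming rule, which asks that the groups not overlap and at least 5 RPKM, the 6 largest rises against C362A Mlkl were of Mt2, Gm16439, Mt1, Hspa1b, Gm15283 and Adm. The metallothioneins Mt1 and Mt2, which bind zinc and copper, were at 58.1, 33.1 and 42.3 RPKM and 26.1, 16.1 and 22.9 RPKM in C362A Mlkl and at 324, 248 and 107 RPKM and 329.8, 210.3 and 66.4 RPKM in C362A Cflar Mlkl (log2 fold change 2.35 ± 0.38, adjusted p = 9.8e-04 and log2 fold change 3.22 ± 0.58, adjusted p = 0.0017, edgeR). In the Mlkl controls they were at 327, 169 and 379 RPKM and 104, 22.5 and 117 RPKM, so that C362A Mlkl was the low group, although the second Mlkl library lay within its range for Mt2. The heat shock gene Hspa1b was at 2.67, 2.53 and 3.92 RPKM and 5.61, 32.1 and 8.06 RPKM (log2 fold change 2.33 ± 0.50, adjusted p = 0.0049, edgeR). Adm, a vasodilator peptide that hypoxia induces, was at 8.90, 4.79 and 5.64 RPKM and 12.6, 48.9 and 24 RPKM (log2 fold change 2.14 ± 0.37, adjusted p = 0.0014, edgeR). Both peaked in the second C362A Cflar Mlkl library, without which the log2 fold changes were 1.17 and 1.51. Both were lower in Mlkl than in either mutant group. Hspa1b has a near-identical neighbour, Hspa1a, with which it may share reads. The processed pseudogene Gm16439 and Gm15283, annotated as antisense, were higher as well (log2 fold changes 2.46 and 2.19), and such reads cannot be told apart from those of a parent gene or, without strand, of a partner gene. Among stem cell genes Lgr5 was at 1.73, 2.40 and 1.90 RPKM and 5.33, 4.49 and 4.74 RPKM (log2 fold change 1.27 ± 0.16, adjusted p = 2.5e-04, edgeR) and Olfm4 at 31.6, 29.4 and 49.2 RPKM and 291, 104 and 62 RPKM.

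**Figure D5:**
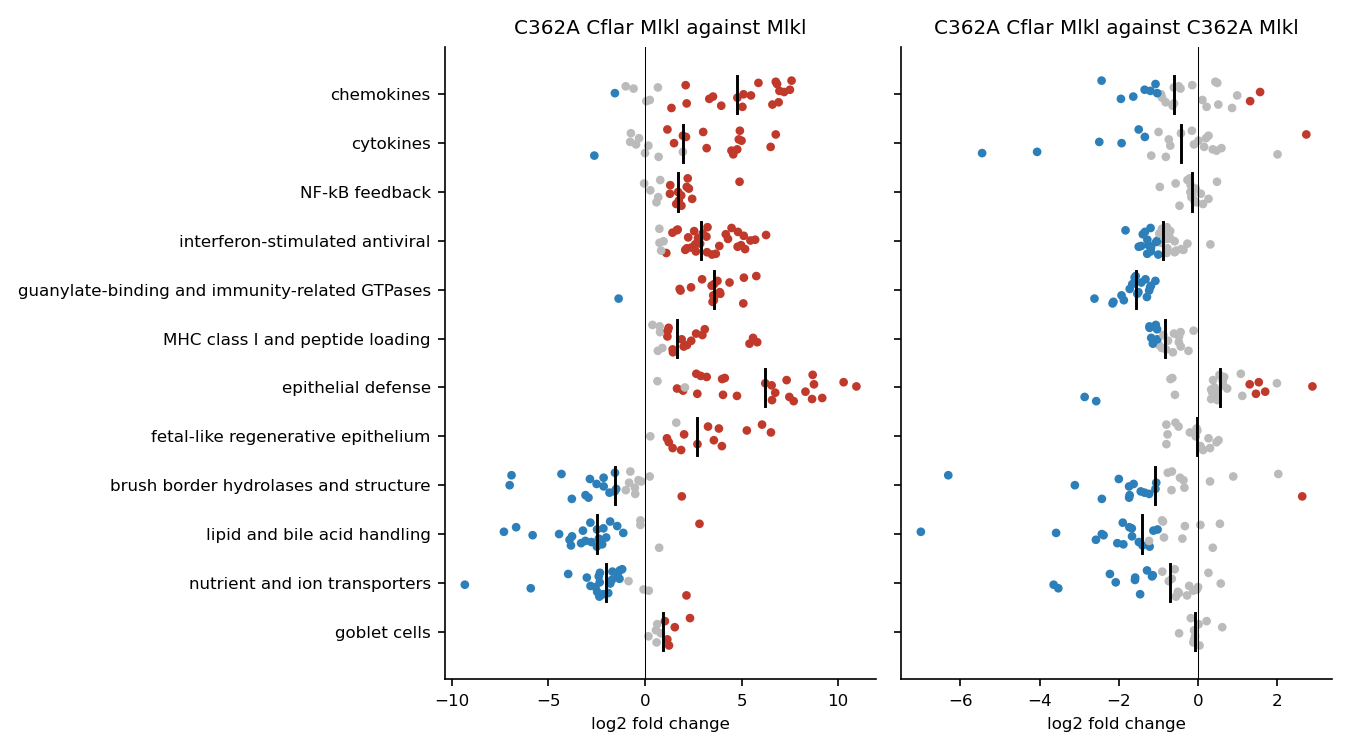
Log2 fold change of each member of 12 lists in C362A Cflar Mlkl against Mlkl and against C362A Mlkl (red called higher, blue called lower, grey not called, black bar the median). The median of the guanylate-binding and immunity-related GTPases is 3.57 against Mlkl and -1.55 against C362A Mlkl, and that of the NF-kB feedback genes 1.71 and -0.15.

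Whether the changes with C362A differed from those with D387A was tested gene by gene as the difference between the log2 fold change of C362A Cflar Mlkl against its Mlkl controls and that of D387A Cflar Mlkl against its own. Of 19643 genes 15 (0.0764%) differed, 13 (0.0662%) with a more positive effect in C362A and 2 (0.0102%) with a more negative one. These counts rested on single libraries: they were 541 and 104 without the third C362A Cflar Mlkl library, 345 and 21 without the third Mlkl library, and 0 and 0 without the first Mlkl library, where the edgeR test had 2635 genes at an unadjusted p under 0.05. Each mutant group has Mlkl controls in its own set, so set and mutation cannot be told apart in the levels, and only the differences from those controls were tested.

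RPKM in this comparison was scaled over all 30 intestine libraries and so differs slightly from the values above. Marco, a scavenger receptor of macrophages, was the gene with the most negative difference. It was at 0.110, 0.0879 and 0.0908 RPKM in Mlkl and 0.436, 0.269 and 0.430 RPKM in C362A Cflar Mlkl, and at 0, 0.220 and 0 RPKM and 12.4, 10.1 and 10.03 RPKM in the D387A set (difference -5.25 ± 0.78, adjusted p = 0.0078, edgeR). Fabp1 fell in both sets, with log2 fold changes of -5.81 for C362A and -7.50 for D387A (difference 1.69 ± 0.30, adjusted p = 0.018, edgeR), and C362A Cflar Mlkl kept 165, 102 and 155 RPKM against 38.1, 38.5 and 34.9 RPKM in D387A Cflar Mlkl. Gsdmc4 rose by 5.26 with C362A and 2.25 with D387A (difference 3.02 ± 0.61, adjusted p = 0.041, edgeR). Mcpt2, a protease of mucosal mast cells, rose by 4.82 and 1.64 (difference 3.19 ± 0.56, adjusted p = 0.018, edgeR), at 0.254, 0.314 and 0.315 RPKM in Mlkl and 8.32, 9.56 and 7.60 RPKM in C362A Cflar Mlkl. In the D387A set it was at 1.69, 0.655 and 1.04 RPKM and 2.00, 3.90 and 4.69 RPKM, so that the controls of that set all lay above those of the C362A set. Gsdmc4 was at 0.152, 0.227 and 0.419 RPKM and 11.3, 8.33 and 10.6 RPKM in the C362A set and 0.809, 0.661 and 0.754 RPKM and 1.80, 2.67 and 6.14 RPKM in the D387A set, with the same order of the controls. H2-Aa, a class II chain, was at 17.3, 26.3 and 30.2 RPKM and 46.4, 50.7 and 27 RPKM here and at 29.98, 30.6 and 27.4 RPKM and 15.2, 14.4 and 20.9 RPKM in the D387A set. Rab19, a small GTPase, and Sla, an adaptor of lymphocyte receptors, differed by 1.13 and 1.11. No member of the chemokine, cytokine, NF-kB feedback, antiviral or guanylate-binding lists was among the 15 genes, but so few calls do not show that these genes acted alike. The median difference was 1.48 for the antiviral list, 0.76 for the guanylate-binding list, 0.15 for cytokines, 0.02 for chemokines and -0.23 for NF-kB feedback genes, beside 0.03 for all genes. Each of the 7 genes named in this comparison lost its call without at least 1 library and under at least 1 other setting, in 57 of 143 checks. Of the libraries left out singly, only the first Mlkl library ended the call of Marco (difference -5.14). The size of the Marco difference rested on the second Mlkl library of the D387A set, the only one of those controls with reads of it, and was fitted at -10.04 without that library. That of Gsdmc4 was 3.68 without the third D387A Cflar Mlkl library.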

How the data were processed

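RNA of snap-frozen whole intestine was sequenced as single-end 50 bp reads. Per the labels and the study's methods the authors aligned the reads with GSNAP to GRCm38 and kept uniquely aligned ones. The deposited files give a read count per Ensembl gene over its exons, the exonic width and an RPKM value, 1 file per library with nothing pooled. The counting program, the annotation release and the treatment of strand were not given in the sources used here, and the sources name different library kits, so reads of overlapping genes on opposite strands may be shared. The deposited RPKM was not used. Gene names and coordinates came from GENCODE M21 (GRCm38), in which 52489 of the 52636 listed genes were found.

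Counts were fitted with edgeR 4.0.16 (R 4.3.3, quasi-likelihood test, trimmed mean of M-values, prior count 0.125) over all 12 libraries of the C362A set, with group as the only term, 8 residual degrees of freedom and genes kept by filterByExpr (minimum count 10, minimum total 15). The difference between C362A and D387A effects was fitted over all 30 intestine libraries. Calls needed an absolute log2 fold change above 1 and a Benjamini-Hochberg adjusted p under 0.05 over all genes tested. RPKM printed here was computed from counts, widths and scaled library totals. Each ± value was back-calculated from the log2 fold change and its edgeR test statistic, as the error that would yield that statistic. It was not estimated directly as a standard error, and it is unreliable for genes with hardly any reads in a group. For genes with at most 3 reads over a group, ratios of pooled reads are given with exact 95% intervals, or against a floor of 3 reads where there was none. Intervals cover counting error only, since reads without molecular identifiers are not independent molecules. The test was first tried on simulated counts.

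Genes named are the targeted genes, members of the lists, the 10 largest rises and falls by log2 fold change and by RPKM of called genes without overlap between the groups (at least 5 RPKM for the former), and the 6 largest in each direction for the other contrasts. The same conditions held against C362A Mlkl. For the difference from D387A the groups could overlap, as they did within the C362A set for H2-Aa and Rab19. The lists and the comparisons were chosen with earlier results of these data known. The results were recomputed with limma-voom (limma 3.58.1) and with DESeq2 1.42.0, under other scalings, filters and a prior count of 2, with other libraries in the fit, with a block for the replicate number, and leaving libraries out singly. No per-sample column lacked a sample. Fibroblast libraries were not used. A few genes that the naming rule covers are not reported here.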

Additional observations from a re-analysis of the deposited data

Results flagged for a closer look

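The effect against the Mlkl controls differed between C362A Cflar Mlkl and D387A Cflar Mlkl intestine by edgeR's test of that difference (Benjamini-Hochberg adjusted p under 0.05, difference above 1) in 15 genes, a count that rests on single libraries as given in the report. The effect was more negative with C362A for Marco (difference of log2 fold changes -5.25) and Mab21l3 (-1.65). It was more positive for Gm38257 (5.71), the mast cell protease gene Mcpt2 (3.19), Gsdmc4 (3.02), Itgae (2.63), which encodes the integrin of intraepithelial lymphocytes, the adenosine receptor gene Adora3 (1.97), Fabp1 (1.69), H2-Aa (1.55), Rab19 (1.13), Sla (1.11), the phosphate transporter gene Slc17a4 (1.10), the apolipoprotein gene Apoe (1.05), the histone gene Hist1h2bc (1.03) and Tsc22d3 (1.01), a glucocorticoid-induced regulator. No explanation for these differences was tested. Gm38257, Itgae and Adora3 were low throughout, at no more than 0.274, 0.485 and 0.491 RPKM in any library compared. Gm38257 was at 0, 0.0165 and 0 RPKM in D387A Cflar Mlkl, so the size of its difference is uncertain.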

How the results depend on the processing

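The counts of 2604 higher and 2177 lower genes against Mlkl stayed within 1.5 times under every alternative run (1782 to 3900 higher and 1558 to 2391 lower), with the most calls of higher genes after scaling by read totals and the fewest with a mean of at least 50 reads. Of 1567 checks over 98 of the genes named for this comparison 6 lost their call and none changed direction. These were Fas without the first library of either group, mt-Cytb (-0.83) and Ret (-0.92) by read totals, mt-Cytb (-0.97) without the third Mlkl library and Naip6 (-0.87) with the Mlkl libraries of both sets pooled. The 98 genes did not include Lyve1 and H2-Oa, which also lost their call without 1 library, as given above. The median of the inflammasome, apoptosis, innate lymphoid, fibroblast, endothelial, islet, stomach, liver, erythroid and sex marker lists changed sign in at least 1 setting, and those of the other lists kept theirs.

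The replicate numbers did not pair the libraries, since same-numbered libraries correlated at -0.22, -0.22 and -0.44 between C362A Cflar Mlkl and Mlkl, and at -0.07, 0.26 and 0.17 between C362A Cflar Mlkl and C362A Mlkl. With the number as a replicate block 2535 genes were higher and 2162 lower against Mlkl, 221 and 863 against C362A Mlkl, and 12 and 2 differed from D387A.

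Against C362A Mlkl 281 genes were higher, but 485 by read totals, 168 with a mean of at least 50 reads, and 154 to 641 when 1 library was left out. The 896 lower genes became 693 to 1072. The comparison with D387A was the least stable, with 13 more positive and 2 more negative genes. These were 6 and 1 in limma-voom, 66 and 4 in DESeq2 (which gave no adjusted p for 10665 genes), 28 more positive by read totals, 115 and 8 with no filter on low counts, and 3 and 0 with only the compared groups in the fit. With 1 library left out they ran from 0 to 541 and from 0 to 104. The causes were not tested. Depth limits genes near 0 reads, such as the interferon genes, for which only bounds or pooled ratios are given.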
